A study of Homo sapiens with 4 samples.

Results

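The integrated stress response genes described here were 34 genes: ATF4, partner and downstream transcription factors, regulators of the pathway, and genes known as ATF4 targets in amino acid supply and tRNA charging. They were taken by name from the stranded gene counts of KP4 cells, and all 34 were found among 60651 genes. KP4 is an established line of pancreatic ductal adenocarcinoma (PDAC). The 4 groups, sequenced as bulk RNA, were control cells given DMSO vehicle, control cells given FOLFIRINOX, E5 cells given vehicle and E5 cells given FOLFIRINOX, each for 96 h. The FOLFIRINOX mixture held SN-38 at 25 nM, which is what irinotecan is converted to in the body, 10 µM of a drug labelled 5-F and 5 µM oxaliplatin, and all cells were kept in DMEM with 10% FBS. The series calls the E5 line resistant, and its design text speaks of 5 cycles of treatment with DMSO or FOLFIRINOX. Which cycles the E5 vehicle cells had met, and whether E5 is a clone or a pool, are details not given in the sources used here. Each group was 1 GEO sample with 3 numbered columns, treated as 3 libraries (n = 3), so p-values measure the spread between these columns, which may be technical.

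In the integrated stress response, kinases that sense amino acid shortage (EIF2AK4, also called GCN2), unfolded proteins, double-stranded RNA or mitochondrial and haem stress phosphorylate the initiation factor eIF2. Bulk translation then falls while the ATF4 message is translated more, and ATF4 protein turns on genes for amino acid synthesis, uptake and tRNA charging, often from a shared DNA element. DDIT3 (CHOP), ATF3 and PPP1R15A act later in the response, and PPP1R15A directs a phosphatase to eIF2 as feedback. Much of the control of ATF4 is on its translation and protein, which RNA counts do not measure.

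The element bound by ATF4 with a C/EBP partner can be written TGATGNAA, and it is shown here because the members that hold it near a start site moved in different directions. It was searched on both strands (TTNCATCA on the other) in RefSeq promoter windows of GRCh38.p14, from 250 bases before to 50 after a start site. Of the 34 genes, 29 had such a window, and the element was found in 11 of these (37.93%), against 1217 of 27305 genes overall (4.46%). The 11 were ATF3, CEBPG, JDP2, PPP1R15B, SLC7A1, SLC3A2, ASNS, CHAC1, AARS1, GARS1 and MARS1. NUPR1, EIF4EBP1, PYCR1, ALDH1L2 and YARS1 had no window. The sequences are given 5′ to 3′ on the strand of the gene, with the element in capitals.
ATF3: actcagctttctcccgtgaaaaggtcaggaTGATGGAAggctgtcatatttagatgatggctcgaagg
CEBPG: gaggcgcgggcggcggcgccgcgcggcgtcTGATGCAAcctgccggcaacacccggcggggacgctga
JDP2: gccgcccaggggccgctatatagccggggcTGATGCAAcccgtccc
ASNS: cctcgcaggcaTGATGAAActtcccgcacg
CHAC1: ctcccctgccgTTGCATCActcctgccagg
AARS1: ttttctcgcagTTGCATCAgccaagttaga
GARS1: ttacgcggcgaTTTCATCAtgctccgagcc
These stretches lie at chr1:212565186-212565253 (ATF3, plus strand), chr19:33374041-33374108 (CEBPG, plus), chr14:75427976-75428021 (JDP2, plus), chr7:97872458-97872487 (ASNS, minus), chr15:40953251-40953280 (CHAC1, plus), chr16:70289675-70289704 (AARS1, minus) and chr7:30594834-30594863 (GARS1, plus). A match is a description of letters in this window and not a measured binding site. As the results give, ATF3 and CEBPG, which hold it, rose with the drug in control cells, CHAC1 fell in both lines, and JDP2 was called in opposite directions in the 2 lines.

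Libraries held 7359034 to 21775030 reads in genes, and the 3 shallowest, library 1 of control vehicle, of control FOLFIRINOX and of E5 vehicle, held 9230058, 7359034 and 7766074. Values per library are CPM (gene counts scaled to library size, with TMM factors), used to compare groups for 1 gene, and levels of different genes are compared as the authors' FPKM, which also divides by length. Of the PDAC label's 8 ductal markers, KRT8 and KRT18 carried most of the signal, while EPCAM was at most 1.49 CPM, CDH1 at most 2.13 CPM and KRT19 at most 4.51 CPM in any library. The summed FPKM of the 8 was 165 to 190 in control vehicle, 386 to 431 in control FOLFIRINOX, 637 to 692 in E5 vehicle and 694 to 765 in E5 FOLFIRINOX libraries. With the drug in control cells, 5 of the 8 rose and 2 fell (32.6% and 32.7% of all tested genes did). Mean CPM there went from 1.23 to 0.304 for CDH1 and from 1.10 to 0.240 for KRT19. In E5 cells 3 rose and 4 fell (25.0% and 27.3% of all). The 5 acinar and 4 islet markers summed to at most 0.23 and 0.2 FPKM, with PRSS1, CPA1, CELA3A, INS and SST at 0 counts. The 6 leukocyte markers summed to 17.9 to 20.3 FPKM in control vehicle, 60.9 to 78.1 in control FOLFIRINOX, 12.1 to 14.8 in E5 vehicle and 19.0 to 28.2 in E5 FOLFIRINOX libraries, with CD3E at 0 counts. Most of the sum in drugged control cells was CD68 at 57.8 to 75.1 FPKM, a gene with only 0 to 10 counts in any library, so the deposited measures disagree for it. PTPRC, the 1 tested leukocyte marker, went the other way, from a mean of 51.9 CPM in control vehicle to 11.4 CPM with the drug, and had at most 0.134 CPM in E5 libraries. The 5 mesenchymal markers summed to 1187 to 1291, 1122 to 1215, 1382 to 1458 and 1014 to 1080 FPKM in the same order of groups, the 6 fibroblast markers to 1.57 to 2.02, 1.68 to 1.94, 4.53 to 6.25 and 2.69 to 3.76 FPKM, and the 3 endothelial markers to 0.07 to 0.33, 0.3 to 0.49, 1.5 to 1.64 and 0.35 to 0.66 FPKM. The mesenchymal sums hide opposite moves. In vehicle 3 of the 5 were higher in E5 than in control cells and 2 were lower (22.1% and 22.2% of all tested genes were). Their log2 differences ran from -0.93 to 4.25. The part of all these markers in the results below was not tested. In bulk RNA, a change in the share of cells in a state and a change in RNA per cell cannot be told apart.

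In vehicle-treated control cells the 34 genes spanned a wide range of FPKM levels. SLC38A2 had 242 ± 16 FPKM (SD, n = 3), ATF4 222 ± 14, GARS1 207 ± 3.1, ASNS 144 ± 4.1 and MARS1 141 ± 5.3. SLC38A2 and ATF4, ATF4 and GARS1, and ASNS and MARS1 differed by less than the sum of their SDs. At the low end were VLDLR at 1.74 ± 0.24 FPKM, STC2 at 1.35 ± 0.026 and ALDH1L2 at 0.27 ± 0.079. NUPR1, a stress-induced chromatin protein, had 4 counts over the 3 control vehicle libraries and 0 over those of drugged control cells (which allows up to 0.0654 CPM, from 3 counts over the group, for counting error only). E5 cells had 7 counts in vehicle and 5 with the drug. It did not pass the filter on low counts, and the other 33 genes were tested.

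With FOLFIRINOX, genes of the response moved in both directions. In both lines the stress transcription factors ATF3, DDIT3 and CEBPB and the feedback gene PPP1R15A rose, while DDIT4, SLC7A5, PCK2, CHAC1 and MARS1 fell. In control cells 11 of 33 genes rose (32.6% of all 15636 tested genes rose) and 11 fell (32.7% of all), with adjusted p under 0.05 by edgeR's quasi-likelihood test. In E5 cells 7 rose (25.0% of all) and 18 fell (27.3% of all). The share that rose in control cells was thus near that of all genes, and the share that fell in E5 cells was above it. The median log2 change of the 33 was -0.04 in control cells and -0.35 in E5 cells, against 0.00 for all tested genes in each. Of the 33, 7 rose in both lines and 9 fell in both, against 2990 and 3253 of all 15636 tested genes. A further 7 fell in E5 cells without a call in control cells (856 of all 15636). JDP2 and TRIB3 rose in control cells and fell in E5 cells (156 of all 15636). Both rises in control cells lost their call in some other fits, given below. The libraries of the 2 treatments did not overlap for 24 of the 33 genes in control cells (67.0% of all genes) and for 29 in E5 cells (59.7%). The balance of calls over all genes depended on the scaling: 49.93% of the called genes rose in control cells by TMM, 60.86% by total counts and 66.93% on log2(FPKM + 1), where the median of all genes lay at 0.14.

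**Figure D1:**
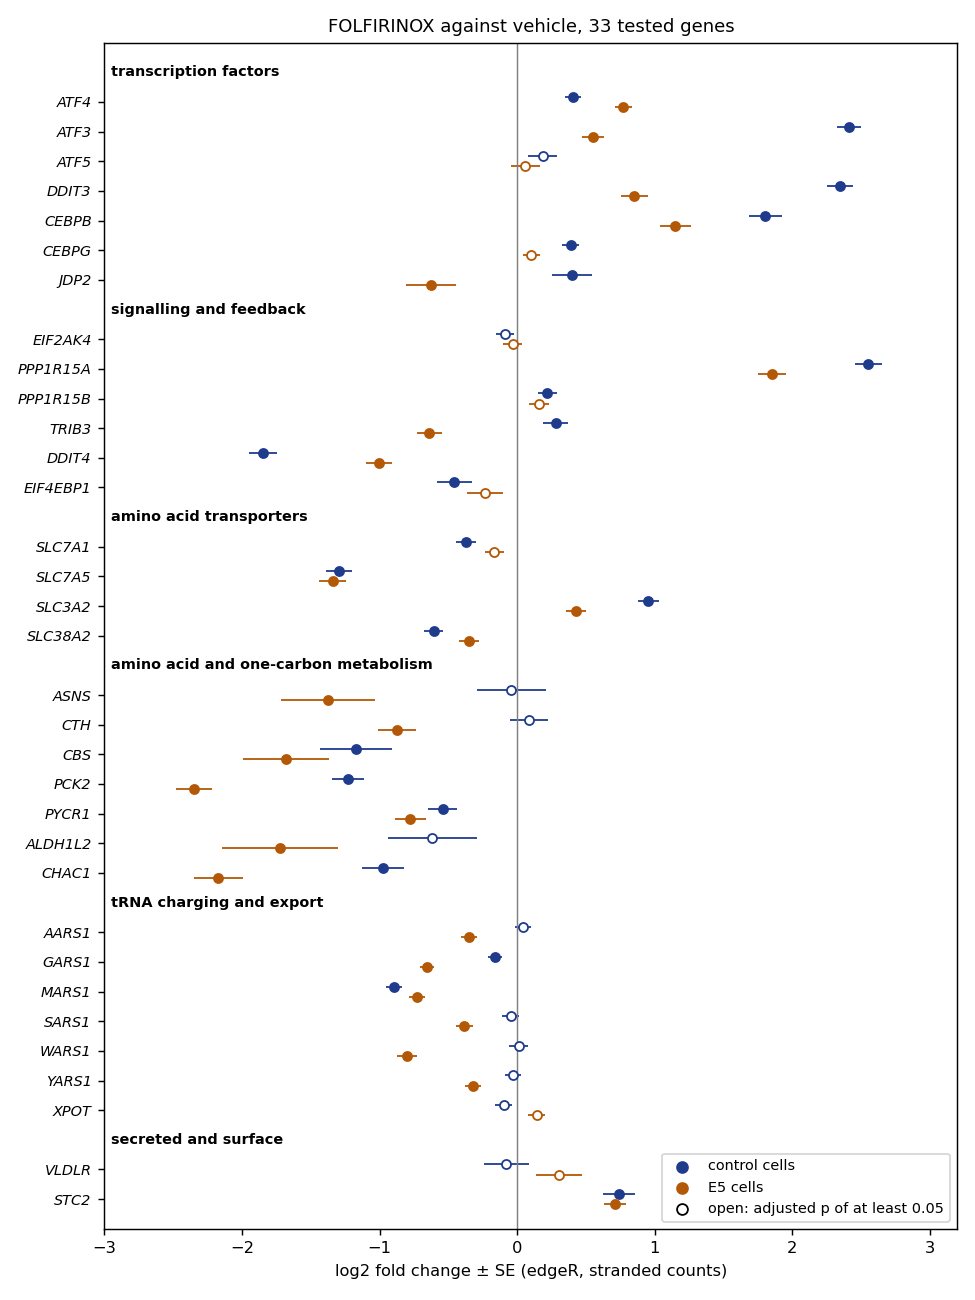
Log2 fold change (x axis, with 1 SE) of FOLFIRINOX against vehicle in control cells (blue) and E5 cells (orange) for the 33 tested genes, by role, from edgeR on the stranded counts. Filled points passed the test at adjusted p under 0.05; ATF3 lies at 2.41 in control and 0.55 in E5 cells, and all 7 metabolic genes lie below 0 in E5 cells.

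The response to the drug differed between the lines for 19 of the 33 genes (25.7% of all tested genes were called either way). The difference of the log2 changes, E5 minus control, was higher for 2 genes (13.3% of all genes were called higher) and lower for 17 (12.4% of all were called lower). Its median over the 33 was -0.34, against 0.01 for all tested genes. The 2 on the higher side were ATF4, which rose more in E5 cells, and DDIT4, which fell less. On log2(FPKM + 1), where the median over all tested genes was -0.096, 1 of the 33 was called higher, and ATF4 lost its call. Without the 3 shallowest libraries, 12 genes were called lower in place of 17.

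Among the transcription factors, ATF4, the bZIP factor at the centre of the response, had 250, 243 and 274 CPM in control vehicle libraries and 334, 358 and 323 CPM with the drug. In E5 cells it had 245, 234 and 231 CPM in vehicle and 416, 405 and 391 CPM with the drug. The drug libraries lay above the vehicle libraries in both lines, and those of drugged E5 cells were the top 3 of the 12. The log2 change was 0.41 ± 0.06 (SE; adjusted p = 1.5e-05) in control and 0.77 ± 0.06 (adjusted p = 2.8e-08) in E5 cells, and the difference was 0.37 ± 0.08 (adjusted p = 0.0048). That difference was 0.22 (adjusted p = 0.09, limma) on log2(FPKM + 1), where the median difference over all tested genes was -0.096.

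ATF3, a bZIP factor induced by many stresses, had 15.1, 15.2 and 16.9 CPM in control vehicle libraries, and 82.8, 89.9 and 79.4 CPM with the drug. In E5 vehicle libraries it already had 45.3, 37.9 and 40.3 CPM, and with the drug 59.4, 63.0 and 57.0 CPM. The 4 groups did not overlap, with drugged control cells on top. ATF3 rose 5.32-fold in control cells (log2 2.41 ± 0.09, adjusted p = 1.0e-12) and 1.46-fold in E5 cells (log2 0.55 ± 0.08, adjusted p = 2.4e-05), a difference of -1.86 ± 0.12 (adjusted p = 1.6e-08). Between the lines it was 2.59-fold higher in E5 cells in vehicle and 1.41-fold lower in E5 cells under the drug.

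DDIT3, which encodes CHOP, a factor tied to cell death under long stress, had 29.7, 28.1 and 32.2 CPM in control vehicle libraries and 149, 168 and 141 CPM with the drug. E5 cells had 36.4, 37.9 and 40.4 CPM in vehicle and 59.7, 73.2 and 75.1 CPM with the drug. Again the 4 groups did not overlap. It rose 5.09-fold in control cells (log2 2.35 ± 0.10, adjusted p = 4.8e-12) and 1.81-fold in E5 cells (log2 0.85 ± 0.10, adjusted p = 1.4e-06), a difference of -1.49 ± 0.13 (adjusted p = 1.0e-06). The 3′ ends of DDIT3 and MARS1 overlap on opposite strands over 19.1% of DDIT3's span, and the counts used strand. AC022506.1, a protein-coding entry on the same strand as DDIT3, shares 53.8% of that span and had 0 counts. Strand cannot separate reads shared with it, and their part in the DDIT3 counts was not tested.

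CEBPB, a C/EBP partner of ATF4, had 18.7, 18.2 and 24.8 CPM in control vehicle and 68.9, 84.0 and 63.3 CPM in control FOLFIRINOX libraries. In E5 cells it had 45.1, 43.1 and 40.5 CPM in vehicle and 88.5, 94.6 and 102 CPM with the drug, so E5 cells lay above control cells under each treatment. It rose by 1.80 ± 0.12 log2 units in control (adjusted p = 1.3e-09) and 1.15 ± 0.11 in E5 cells (adjusted p = 3.6e-07), and the difference of -0.65 ± 0.16 had adjusted p = 0.0079, or 0.064 without the 3 shallowest libraries. CEBPG, a C/EBP factor that pairs with ATF4, had 89.5 to 92.6 CPM in control vehicle, 111 to 125 in control FOLFIRINOX, 79.8 to 85.8 in E5 vehicle and 88.5 to 91.7 CPM in E5 FOLFIRINOX libraries. It rose in control cells by 0.39 ± 0.06, and its change of 0.10 ± 0.06 in E5 cells did not pass (adjusted p = 0.18). The CEBPG difference of -0.29 ± 0.09 (adjusted p = 0.025) lost its call when any 1 of 8 of the 12 libraries was left out (-0.29 to -0.25), and kept it without library 2 of either control group, E5 vehicle library 1 or E5 FOLFIRINOX library 3.

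JDP2, a bZIP factor related to ATF3, was the transcription factor of the list whose call changed sign. It had 6.78, 5.63 and 5.84 CPM in control vehicle, 8.75, 8.33 and 6.86 in control FOLFIRINOX, 4.42, 5.59 and 3.57 in E5 vehicle and 2.79, 3.13 and 3.09 CPM in E5 FOLFIRINOX libraries. Drugged E5 cells were the lowest group and drugged control cells the highest, without overlap. The log2 change was 0.40 ± 0.15 in control (adjusted p = 0.024) and -0.63 ± 0.18 in E5 cells (adjusted p = 0.008), a difference of -1.02 ± 0.23 (adjusted p = 0.0042). The rise in control cells lost its call without control vehicle library 2 (0.34, adjusted p = 0.10) or 3 (0.37) or control FOLFIRINOX library 1 (0.35) or 2 (0.34), and the fall in E5 cells without E5 vehicle library 2 (-0.39, adjusted p = 0.12). ATF5, a factor translated in the same way as ATF4, was not called in any comparison, with log2 changes of 0.19 ± 0.10 and 0.06 ± 0.11 in control and E5 cells and 45.9 to 67.0 CPM over the 12 libraries. Without control FOLFIRINOX library 1 its change in control cells was called (0.26, adjusted p = 0.049).

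**Figure D2:**
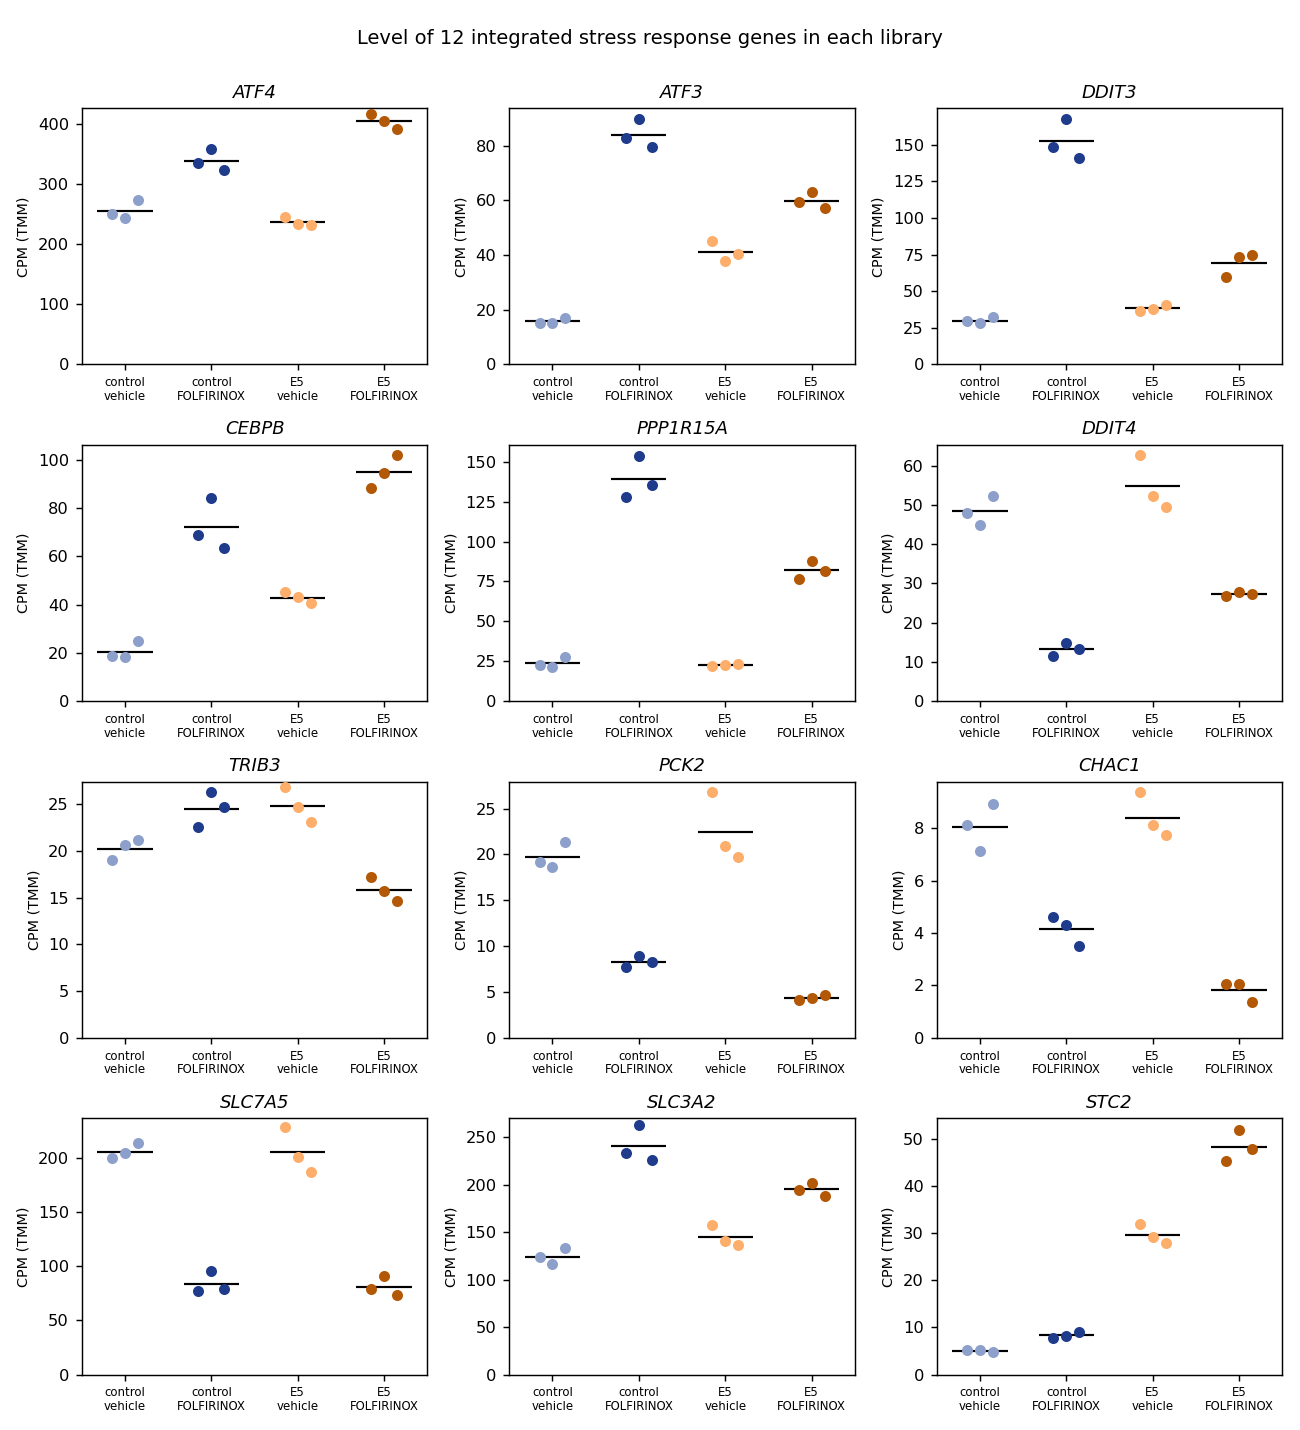
CPM (y axis, TMM scaling, from 0) of 12 of the genes in each library of the 4 groups (x axis), with a point for each library and a line at the mean of 3. ATF3, DDIT3 and PPP1R15A are highest in drugged control cells, ATF4, CEBPB and STC2 in drugged E5 cells, and PCK2 and CHAC1 are lowest in drugged E5 cells.

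Among the regulators, PPP1R15A (GADD34), the inducible subunit that directs a phosphatase to eIF2, had 22.6, 21.1 and 27.5 CPM in control vehicle and 128, 154 and 135 CPM in control FOLFIRINOX libraries. Its values in E5 cells were 22.1, 22.4 and 23.5 CPM in vehicle and 76.8, 87.7 and 81.8 CPM with the drug. The vehicle groups overlapped and the drug groups stood apart, control above E5. It rose 5.86-fold in control (log2 2.55 ± 0.10, adjusted p = 2.1e-12) and 3.61-fold in E5 cells (log2 1.85 ± 0.10, adjusted p = 4.2e-10), a difference of -0.70 ± 0.14 (adjusted p = 0.0015). Its constitutive relative PPP1R15B had 89.8 to 107 CPM in control vehicle and 107 to 119 CPM in control FOLFIRINOX libraries, and log2 changes of 0.22 ± 0.07 (adjusted p = 0.013) in control and 0.16 ± 0.07 (adjusted p = 0.072) in E5 cells. The call in control cells was lost without control vehicle library 1 (0.18) or 3 (0.17) or control FOLFIRINOX library 3 (0.17). E5 cells had more PPP1R15B under each treatment, by 0.38 ± 0.07 in vehicle and 0.32 ± 0.07 with the drug. In E5 cells the drug change of PPP1R15B was called without library 2 of control vehicle (0.16) or of control FOLFIRINOX (0.17).

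TRIB3, a pseudokinase induced by ATF4 and DDIT3 that restrains ATF4, had 19.0, 20.6 and 21.1 CPM in control vehicle and 22.5, 26.2 and 24.7 CPM in control FOLFIRINOX libraries. In E5 cells it had 26.8, 24.6 and 23.1 CPM in vehicle and 17.2, 15.7 and 14.7 CPM with the drug, below every other library. The log2 change was 0.28 ± 0.09 in control (adjusted p = 0.011) and -0.64 ± 0.09 in E5 cells (adjusted p = 2.2e-05), and the difference was -0.92 ± 0.13 (adjusted p = 7.6e-05). The rise in control cells missed the threshold without control FOLFIRINOX library 2 (0.22, adjusted p = 0.05).

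DDIT4 (REDD1), an inhibitor of mTORC1 signalling, fell in both lines. It had 47.8, 44.9 and 52.2 CPM in control vehicle and 11.6, 14.8 and 13.2 CPM in control FOLFIRINOX libraries. For E5 cells the values were 62.7, 52.4 and 49.4 CPM in vehicle and 26.7, 27.8 and 27.2 CPM with the drug. Both drug groups lay below both vehicle groups, with drugged control cells lowest. DDIT4 was 3.59-fold lower with the drug in control (log2 -1.85 ± 0.10, adjusted p = 1.7e-10) and 2.0-fold lower in E5 cells (log2 -1.0 ± 0.10, adjusted p = 2.5e-07), a difference of 0.84 ± 0.14 (adjusted p = 0.00038).

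EIF4EBP1, a repressor of cap-dependent translation, fell in control cells (-0.46 ± 0.13, adjusted p = 0.0053), and in E5 cells its change of -0.23 ± 0.13 did not pass (-0.22 and adjusted p = 0.048 without control FOLFIRINOX library 2). The call in control cells was not made on log2(FPKM + 1) (-0.31, adjusted p = 0.085, limma). EIF2AK4, the kinase that senses uncharged tRNA, was not called with the drug in either line (-0.09 ± 0.07 and -0.03 ± 0.07). Its level differed between the lines: 112 to 118 CPM in control vehicle against 79.6 to 88.4 CPM in E5 vehicle libraries, a log2 difference of -0.42 ± 0.07 (adjusted p = 7.9e-05), and -0.36 ± 0.07 (adjusted p = 0.00022) under the drug.

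The transporter subunits SLC7A5 (LAT1), the light chain that carries large neutral amino acids, and SLC3A2 (CD98), its heavy chain partner, moved apart. SLC7A5 had 200, 204 and 213 CPM in control vehicle, 76.8, 95.6 and 78.6 in control FOLFIRINOX, 228, 201 and 187 in E5 vehicle and 78.7, 90.8 and 73.6 CPM in E5 FOLFIRINOX libraries. SLC3A2 had 124, 117 and 133 CPM in control vehicle, 233, 263 and 226 in control FOLFIRINOX, 158, 141 and 137 in E5 vehicle and 195, 202 and 188 CPM in E5 FOLFIRINOX libraries. The drug groups lay below the vehicle groups for SLC7A5 and above them for SLC3A2. SLC7A5 fell by 1.29 ± 0.10 log2 units in control (adjusted p = 4.4e-09) and 1.34 ± 0.10 in E5 cells (adjusted p = 9.5e-09), and the difference of -0.05 ± 0.13 did not pass (adjusted p = 0.82). SLC3A2 rose by 0.95 ± 0.07 in control (adjusted p = 7.9e-09) and 0.43 ± 0.07 in E5 cells (adjusted p = 0.00012), a difference of -0.52 ± 0.10 (adjusted p = 0.0016). In FPKM, SLC3A2 per SLC7A5 lay at 2.22 to 2.43 in control vehicle and 2.42 to 2.79 in E5 vehicle libraries, and 11.1 to 13.3 in control and 9.29 to 10.4 in E5 libraries with the drug. SLC3A2 is also the heavy chain of other transporters, among them that of SLC7A11.

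SLC38A2 (SNAT2), a sodium-coupled carrier of small neutral amino acids, had 1198, 1247 and 1104 CPM in control vehicle and 811, 698 and 822 CPM in control FOLFIRINOX libraries. E5 libraries had 786, 863 and 833 CPM in vehicle and 612, 628 and 707 CPM with the drug, and the libraries of undrugged E5 cells overlapped those of drugged control cells. It fell by 0.61 ± 0.07 log2 units in control (adjusted p = 1.3e-06) and 0.35 ± 0.07 in E5 cells (adjusted p = 0.00062). SLC7A1 (CAT1), a carrier of cationic amino acids, fell in control cells (-0.37 ± 0.07, adjusted p = 0.0002), and its change of -0.16 ± 0.07 in E5 cells had adjusted p = 0.059. Without E5 FOLFIRINOX library 1 (-0.20) or 2 (-0.21) SLC7A1 was called lower in E5 cells.

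The 7 genes of amino acid and one-carbon metabolism all fell in E5 cells by counts (27.3% of all tested genes fell there). Of these, 5 fell by at least 2-fold, as did 7 of the 33 genes and 4.27% of all tested genes. In control cells 4 of the 7 fell (32.7% of all tested genes fell there), and none rose in either line. Of the 5, ASNS and CBS received few counts and fell on log2(FPKM + 1) too, and ALDH1L2 was not called on that scale (-0.02, adjusted p = 0.90 with limma). PCK2, the mitochondrial enzyme that makes phosphoenolpyruvate, had 19.1, 18.7 and 21.4 CPM in control vehicle and 7.72, 8.93 and 8.31 CPM in control FOLFIRINOX libraries. In E5 cells it had 26.8, 20.9 and 19.7 CPM in vehicle and 4.08, 4.34 and 4.63 CPM with the drug. The vehicle groups overlapped, and the drug groups did not. PCK2 was 2.34-fold lower with the drug in control (log2 -1.23 ± 0.12, adjusted p = 9.2e-08) and 5.09-fold lower in E5 cells (log2 -2.35 ± 0.13, adjusted p = 5.1e-10), a difference of -1.12 ± 0.18 (adjusted p = 0.00025).

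CHAC1, a glutathione-degrading enzyme often used as a readout of ATF4, went down rather than up. It had 8.12, 7.11 and 8.93 CPM in control vehicle, 4.63, 4.32 and 3.51 in control FOLFIRINOX, 9.37, 8.11 and 7.74 in E5 vehicle and 2.07, 2.07 and 1.35 CPM in E5 FOLFIRINOX libraries. Drugged E5 cells were lowest, drugged control cells next, and the vehicle groups overlapped. It was 1.97-fold lower in control (log2 -0.97 ± 0.15, adjusted p = 2.8e-05) and 4.51-fold lower in E5 cells (log2 -2.17 ± 0.18, adjusted p = 4.4e-08), a difference of -1.20 ± 0.24 (adjusted p = 0.0018).

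CTH, which makes cysteine from cystathionine, had 4.63 to 4.87 CPM in control vehicle, 4.61 to 5.57 in control FOLFIRINOX, 6.43 to 8.77 in E5 vehicle and 3.93 to 4.29 CPM in E5 FOLFIRINOX libraries. It fell in E5 cells (-0.87 ± 0.14, adjusted p = 5.1e-05) and was not called in control cells (0.09 ± 0.14), a difference of -0.96 ± 0.20 (adjusted p = 0.0019) that was not called on log2(FPKM + 1) (-0.44, adjusted p = 0.18, limma). PYCR1, the last enzyme of proline synthesis, fell in control (-0.54 ± 0.11) and E5 cells (-0.77 ± 0.11, adjusted p = 2.3e-05), and the call in control cells was not made on log2(FPKM + 1) (-0.25, adjusted p = 0.081). ALDH1L2, a mitochondrial folate enzyme, had at most 2.21 CPM, and its fall in E5 cells (-1.73 ± 0.42, adjusted p = 0.0025) was absent from the FPKM values, with -0.02 on log2(FPKM + 1) and adjusted p = 0.90.

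ASNS, which makes asparagine, and CBS, which makes cystathionine, received few counts. Over the 12 libraries ASNS had a mean of 2.17 CPM but 96.4 FPKM, and the ratio of the 2 corresponds to 0.95% of its longest annotated transcript, against 3.23% for CBS and 30.5 to 115% for the other tested genes. ASNS lies at 97851677 to 97872542 on chromosome 7, and 99.9% of this span is shared with the lncRNA AC079781.5 on the same strand. CBS on chromosome 21 has a near-identical copy, CBSL. Counting that leaves out reads shared by genes would lose such reads, and its part in these low counts was not tested. By FPKM, ASNS went from 144 ± 4.1 (SD, n = 3) to 79.6 ± 6.0 with the drug in control cells and from 118 ± 3.3 to 44.4 ± 2.2 in E5 cells, and the groups did not overlap.

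By counts, ASNS was not called with the drug in control cells (-0.04 ± 0.25, adjusted p = 0.90) and fell in E5 cells (-1.37 ± 0.34, adjusted p = 0.0029). On log2(FPKM + 1) with limma it fell in both, by 0.85 in control (adjusted p = 2.2e-07) and 1.39 in E5 cells (adjusted p = 1.7e-08), with a difference of -0.54 (adjusted p = 0.0014). The difference by counts, -1.33 ± 0.43 (adjusted p = 0.03), lost its call without control vehicle library 1 (-1.24), control FOLFIRINOX library 2 (-1.05), E5 vehicle library 2 (-1.15) or 3 (-1.29) or E5 FOLFIRINOX library 3 (-0.98). CBS fell in both lines by both measures: by counts -1.17 ± 0.26 in control and -1.68 ± 0.31 in E5 cells, and on log2(FPKM + 1) -0.98 and -1.66. Its FPKM went from 28.3 ± 2.1 (SD, n = 3) to 13.8 ± 1.3 with the drug in control cells and from 23.5 ± 3.1 to 6.71 ± 0.71 in E5 cells. The difference of the CBS responses was called on log2(FPKM + 1) (-0.68, adjusted p = 0.0089) and not by counts (-0.51 ± 0.42, adjusted p = 0.40).

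**Figure D3:**
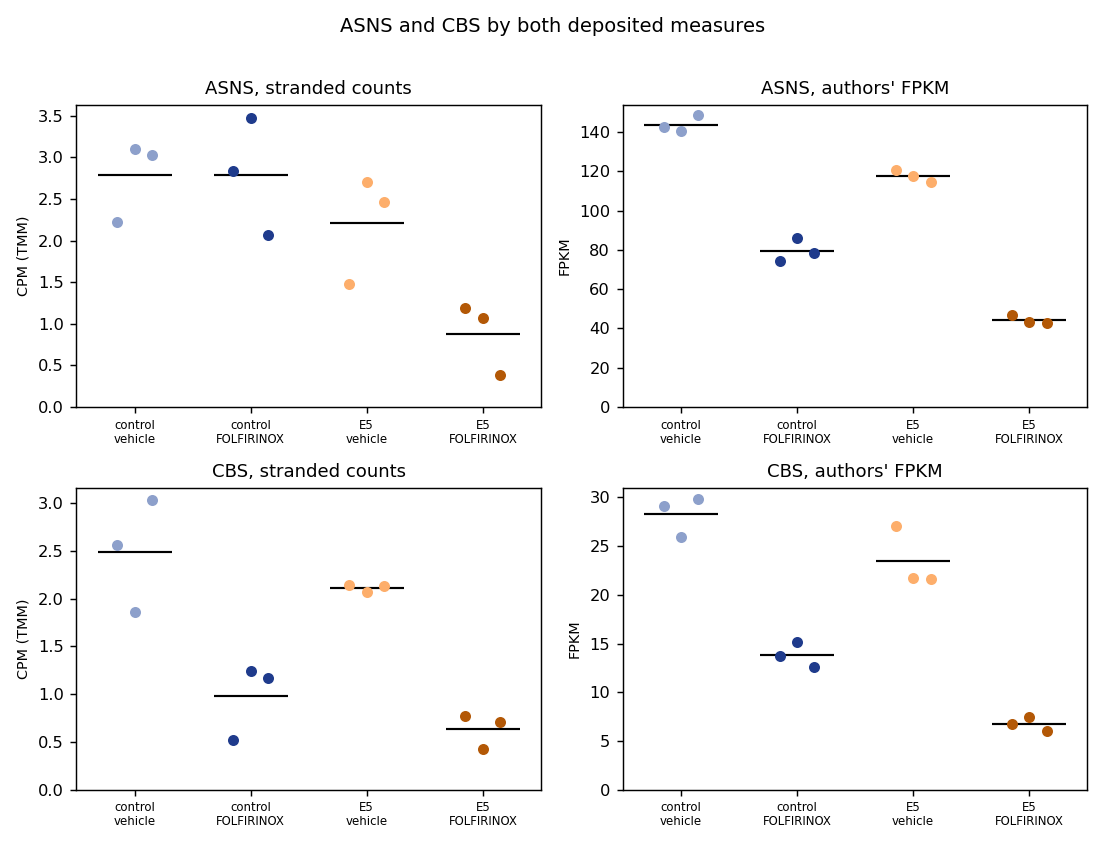
ASNS (top) and CBS (bottom) in each library of the 4 groups, as CPM from the stranded counts (left y axis) and as the authors' FPKM (right y axis), with a point for each library and a line at the mean of 3. ASNS overlaps between control vehicle and control FOLFIRINOX in CPM and is separate in FPKM, where the means are 144 and 79.6.

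Of the 6 tRNA synthetases, which load amino acids onto tRNAs, MARS1 (methionine) and GARS1 (glycine) fell in both lines by counts, and AARS1 (alanine), SARS1 (serine), WARS1 (tryptophan) and YARS1 (tyrosine) were called only in E5 cells, where they fell. By FPKM in control cells, GARS1 had 207 ± 3.1 (SD, n = 3) in vehicle and 204 ± 6.5 with the drug. MARS1 had 141 ± 5.3 and 101 ± 5.3 FPKM there. MARS1 had 289, 296 and 307 CPM in control vehicle, 154, 169 and 158 in control FOLFIRINOX, 287, 273 and 273 in E5 vehicle and 172, 172 and 157 CPM in E5 FOLFIRINOX libraries. Drug and vehicle libraries did not overlap, while the drug libraries of the 2 lines did. It fell by 0.89 ± 0.06 log2 units in control (adjusted p = 1.2e-09) and 0.73 ± 0.06 in E5 cells (adjusted p = 3.5e-08), and the difference of 0.16 ± 0.08 did not pass (adjusted p = 0.16).

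WARS1 had 148, 146 and 162 CPM in control vehicle, 150, 158 and 151 in control FOLFIRINOX, 297, 260 and 270 in E5 vehicle and 168, 161 and 145 CPM in E5 FOLFIRINOX libraries. Only the E5 vehicle libraries stood apart. WARS1 was 1.81-fold higher in E5 than in control cells in vehicle (log2 0.86 ± 0.07, adjusted p = 2.7e-08) and fell with the drug in E5 cells (-0.80 ± 0.07, adjusted p = 1.0e-07), a difference of the drug responses of -0.81 ± 0.10 (adjusted p = 2.3e-05). WARS1 is also known as an interferon-induced gene.

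AARS1 had 318 to 320 CPM in control vehicle, 322 to 339 in control FOLFIRINOX, 215 to 241 in E5 vehicle and 165 to 184 CPM in E5 FOLFIRINOX libraries. E5 cells lay below control cells under each treatment, by -0.49 ± 0.06 in vehicle and -0.89 ± 0.06 with the drug (adjusted p = 3.1e-06 and 1.8e-09). In E5 cells the drug changes were -0.66 ± 0.05 for GARS1, -0.38 ± 0.06 for SARS1, -0.35 ± 0.06 for AARS1 and -0.32 ± 0.06 for YARS1. In control cells they were -0.16 ± 0.05 (adjusted p = 0.0084) for GARS1, 0.04 ± 0.06 for AARS1, -0.05 ± 0.06 for SARS1 and -0.03 ± 0.06 for YARS1. Scaling mattered for these small values in control cells: GARS1 was -0.03 (adjusted p = 0.65) with total counts, AARS1 was 0.18 (adjusted p = 0.018), and YARS1 was 0.16 (adjusted p = 0.021) on log2(FPKM + 1). XPOT, the exporter of tRNAs from the nucleus, was not called with the drug in either line (-0.10 ± 0.06 and 0.14 ± 0.06), and in E5 cells it was called with total counts (0.21, adjusted p = 0.0069) and without control FOLFIRINOX library 2 or 3 (0.15 each). The difference of the drug responses of YARS1, -0.29 ± 0.08 (adjusted p = 0.017), missed the threshold without control vehicle library 2 (-0.26, adjusted p = 0.053).

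STC2, a secreted glycoprotein, had a larger difference between the lines in vehicle than any other tested gene of the 33. It had 5.23, 5.20 and 4.75 CPM in control vehicle, 7.85, 8.23 and 8.98 in control FOLFIRINOX, 32, 29.2 and 27.9 in E5 vehicle and 45.4, 52.0 and 47.8 CPM in E5 FOLFIRINOX libraries. The 4 groups did not overlap. STC2 was 5.85-fold higher in E5 cells in vehicle (log2 2.55 ± 0.10, adjusted p = 2.0e-12) and 5.73-fold higher under the drug (log2 2.52 ± 0.09, adjusted p = 5.0e-13). It rose with the drug by 0.74 ± 0.11 in control (adjusted p = 2.4e-05) and 0.71 ± 0.08 in E5 cells (adjusted p = 1.5e-06), and the difference of -0.03 ± 0.14 did not pass (adjusted p = 0.90). VLDLR, a lipoprotein receptor, had 4.56 to 7.72 CPM over the 12 libraries and was not called in any comparison. Without E5 FOLFIRINOX library 2, which had 4.56 CPM, VLDLR was called higher with the drug in E5 cells (0.48, adjusted p = 0.0092).

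Between the lines, 10 of the 33 genes were higher in E5 than in control cells in vehicle (22.1% of all tested genes were higher) and 4 were lower (22.2% of all). Under FOLFIRINOX 6 were higher (26.7% of all) and 17 were lower (27.6% of all). The median log2 difference was 0.00 in vehicle and -0.30 under the drug, against -0.01 for all tested genes in each. The libraries of the 2 lines did not overlap for 20 genes in vehicle (54.8% of all genes) and 24 under the drug (57.2%). The 10 genes higher in vehicle were ATF3, DDIT3, CEBPB, PPP1R15B, TRIB3, SLC3A2, CTH, SARS1, WARS1 and STC2, and the 4 lower were EIF2AK4, SLC38A2, AARS1 and XPOT. ATF3, CEBPB and STC2 were higher by at least 2-fold (7.43% of all tested genes were).

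The calls of SLC3A2 (0.22 ± 0.07, adjusted p = 0.024) and TRIB3 (0.28 ± 0.09, adjusted p = 0.019) in vehicle were lost without the 3 shallowest libraries (0.15 and 0.20). They were also lost without control vehicle library 1 (0.21 and 0.24) or E5 vehicle library 1 (0.16 and 0.23), that of SLC3A2 without control vehicle library 2 (0.17) and that of TRIB3 without E5 vehicle library 2 (0.28, adjusted p = 0.05). SARS1 also lost its call in vehicle without the 3 shallowest libraries (0.18, adjusted p = 0.12), which left 7 genes called higher in place of 10. Under the drug ATF4, CEBPB, PPP1R15B, DDIT4, SLC7A1 and STC2 were higher in E5 cells, and on log2(FPKM + 1) the calls of ATF4 (0.14, adjusted p = 0.087) and CEBPB (0.32, adjusted p = 0.054) were not made. DDIT3 (-1.14 ± 0.09), JDP2 (-1.39 ± 0.16), PCK2 (-0.96 ± 0.14), CHAC1 (-1.15 ± 0.19), ASNS (-1.63 ± 0.32) and ALDH1L2 (-1.30 ± 0.43) had the lowest of the 17 values on the lower side. On log2(FPKM + 1) ASNS was -0.83 (adjusted p = 4.2e-07) and ALDH1L2 was 0.10 (adjusted p = 0.41), and by counts ALDH1L2 lost its call without control FOLFIRINOX library 3 (-1.15) or E5 FOLFIRINOX library 3 (-0.97). Over all genes, 49.13% of calls under the drug were higher in E5 cells by TMM, 40.21% by total counts and 35.37% on log2(FPKM + 1).

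**Figure D4:**
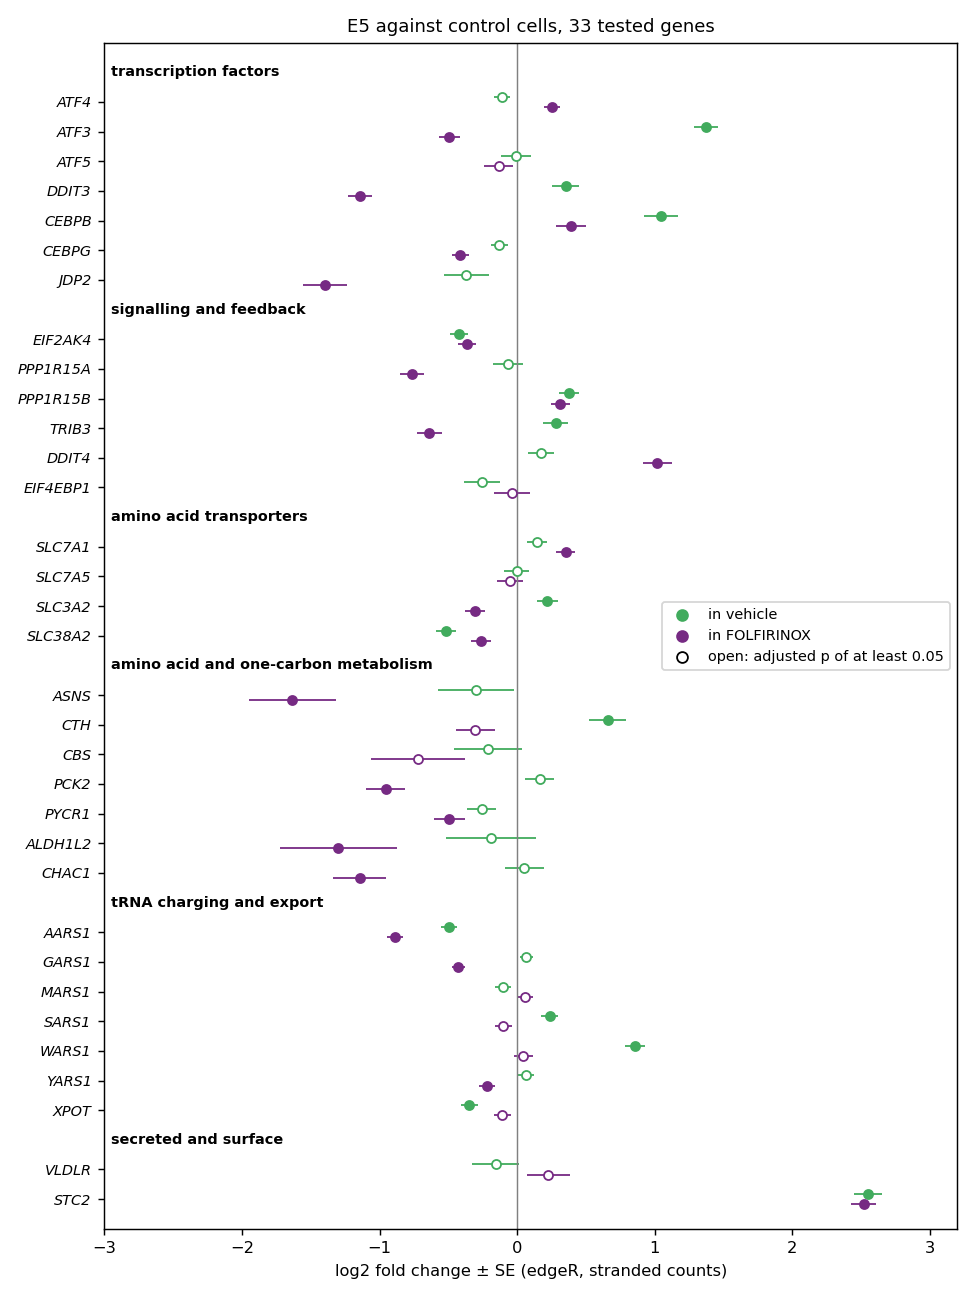
Log2 fold change (x axis, with 1 SE) of E5 against control cells in vehicle (green) and under FOLFIRINOX (purple) for the 33 tested genes, by role, from edgeR on the stranded counts. Filled points passed the test at adjusted p under 0.05; STC2 lies at 2.55 and 2.52, and ATF3, DDIT3 and TRIB3 are above 0 in vehicle and below 0 under the drug.

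Other genes of the pathway were read from lists, whose counts stand beside 32.6% of all tested genes that rose and 32.7% that fell in control cells, and 25.0% and 27.3% in E5 cells, with a median log2 change of 0.00 over all genes in each line. Of 19 tested further ATF4 targets, 4 rose and 12 fell in control cells (median log2 change -0.49) and 3 rose and 13 fell in E5 cells (median -0.52). PSAT1 (-1.50 ± 0.06 in control, -1.89 ± 0.06 in E5 cells) and PHGDH (-1.47 ± 0.09 and -1.42 ± 0.09), enzymes of serine synthesis, fell in both lines, as did GDF15, a secreted stress cytokine (-0.89 ± 0.15 and -1.01 ± 0.15). SQSTM1, an autophagy receptor (1.32 ± 0.07 and 0.90 ± 0.06), and NOCT, a phosphatase of NADP (1.36 ± 0.08 and 0.90 ± 0.10), rose in both. SLC7A11, the cystine carrier that pairs with SLC3A2, fell in control cells (-1.05 ± 0.14) and was not called in E5 cells (-0.32 ± 0.14, adjusted p = 0.063), a difference of 0.73 ± 0.20 (adjusted p = 0.014). SESN2, a stress-induced inhibitor of mTORC1, fell in E5 cells (-1.09 ± 0.10) and was not called in control cells (0.19 ± 0.10, adjusted p = 0.10), a difference of -1.28 ± 0.14 (adjusted p = 7.2e-06).

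Upstream of ATF4, of 8 further eIF2 kinases and their regulators none rose, 6 fell in control (32.7% of all tested genes fell) and 8 in E5 cells (27.3% of all), with medians of -0.36 and -0.37. The 8 include IMPACT, an inhibitor of GCN2 activation (-0.39 ± 0.08 and -0.51 ± 0.08), and DNAJC3, an inhibitor of PERK, which fell in E5 cells (-0.30 ± 0.08) and was not called in control cells (-0.18 ± 0.08). EIF2AK2 (PKR), the kinase that senses double-stranded RNA, changed by -0.56 ± 0.09 in control and -0.53 ± 0.09 in E5 cells, and EIF2AK3 (PERK), the kinase of the endoplasmic reticulum, by -0.33 ± 0.10 and -0.40 ± 0.10. EIF2AK1 (HRI), the kinase that senses haem, fell in E5 cells (-0.29 ± 0.06) and was not called in control cells (-0.10 ± 0.06, adjusted p = 0.15). Of the 8 subunits of eIF2 and of its exchange factor eIF2B, 6 rose and 1 fell in control and 4 rose and 1 fell in E5 cells (32.6% and 25.0% of all tested genes rose), with EIF2B3 at 0.75 ± 0.07 and 0.33 ± 0.07. Of the 12 genes of the ATF6 and XBP1 arms of the unfolded protein response, 2 rose and 9 fell in control and 1 rose and 11 fell in E5 cells, with medians of -0.55 and -0.63. HSPA5 (BiP), the main chaperone of the endoplasmic reticulum, fell by 0.52 ± 0.05 log2 units in control and 1.03 ± 0.05 in E5 cells, a difference of -0.50 ± 0.06 (adjusted p = 3.7e-05).

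Of 14 other cytosolic tRNA synthetases, 8 rose and 4 fell in control cells (32.6% and 32.7% of all tested genes did) and 3 rose and 5 fell in E5 cells (25.0% and 27.3% of all), with medians of 0.21 and 0.04. Among them were QARS1 (glutamine) at -1.06 ± 0.08 and -1.11 ± 0.08 and FARSB (phenylalanine) at 0.55 ± 0.05 and 0.60 ± 0.05. Of 16 tested mitochondrial ones, 3 rose and 9 fell in control and 2 rose and 5 fell in E5 cells, with medians of -0.34 and -0.11.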

How the data were processed

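The 34 genes and the other gene lists were chosen with earlier results of these data known. Stranded read counts per gene were made with STAR 2.5.1b on GRCh38 after Trimmomatic, per the submitters' processing notes, and deposited by the authors without scaling. Deposited FPKM values and log2 values (rlog) were also computed by the authors, and their programs are not given in the sources used here. Column names tie 12 columns to 4 samples. Reads assigned to no gene were left out of library totals: 1.47 to 1.70% unmapped, 10.79 to 12.84% multimapping, 6.63 to 8.52% without a feature and 2.86 to 3.20% ambiguous.

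Counts were tested with edgeR 4.0.16 in R 4.3.3 (quasi-likelihood F test, TMM, filterByExpr, 4 group means, all 12 libraries), which left 15636 genes, with Benjamini-Hochberg adjustment over all of them at 0.05. The SE is the size of the log2 change divided by the square root of F. No 2 libraries of a group agreed within counting noise: the variance between them was 1.46 to 13.3 times that of counting noise (mean chi-square per gene). On simulated counts for drug against vehicle in control cells (15230 genes), 48 of 50 genes changed by log2 0.5 and 50 of 50 changed by log2 1 were recovered. The changed genes were drawn from those above a set mean CPM, and all genes had the same simulated spread. Recovery at lower levels, such as those of ASNS, CBS and ALDH1L2, was not simulated. Named genes are all members and, of each further list, at most 4 called genes with the largest change, plus PSAT1, PHGDH, SLC7A11, GDF15, HSPA5 and 3 eIF2 kinases. Alternatives were DESeq2 1.42.0, total counts, no filter, a replicate block, each library left out, limma 3.58.1 on log2(FPKM + 1), log2(FPKM + 0.1), FPKM of at least 1 in 3 libraries, and rlog. One was added after seeing the data: the 3 shallowest libraries left out together. Coordinates of genes come from the files, transcript lengths and strands from GENCODE v29, and promoter sequences from RefSeq.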

Additional observations from a re-analysis of the deposited data

Results flagged for a closer look

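The drug response differed between E5 and control cells, by the test of the difference itself, for 19 of the 33 tested genes. Of all tested genes 25.7% were called either way. The difference was higher for 2 of the 33 (13.3% of all tested genes) and lower for 17 (12.4% of all). The differences of the log2 changes, E5 minus control, were as follows. Of the transcription factors, ATF4 had 0.37, ATF3 -1.86, DDIT3 -1.49, CEBPB -0.65, CEBPG -0.29 and JDP2 -1.02. Of the regulators, PPP1R15A had -0.70, TRIB3 -0.92 and DDIT4 0.84. The transporter subunit SLC3A2 had -0.52. Of the metabolic enzymes, ASNS had -1.33, CTH -0.96, PCK2 -1.12 and CHAC1 -1.20. Of the tRNA synthetases, AARS1 had -0.39, GARS1 -0.50, SARS1 -0.34, WARS1 -0.81 and YARS1 -0.29. On log2(FPKM + 1) with limma the difference was -0.54 for ASNS and -0.44 for CTH (adjusted p = 0.18, not called), and by counts that of ASNS lost its call without any 1 of 5 libraries. The differences of ATF4, CEBPB, CEBPG, SARS1 and YARS1 each lost their call under at least 1 alternative too. Without the 3 shallowest libraries, 12 were called lower in place of 17.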

How the results depend on the processing

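Over all alternatives, 3309 of the results for single genes kept their side of the threshold, and their direction where called. Of the others, 81 lost their call, 65 gained one and 5 reversed. Direction was not compared where neither fit made a call. The reversed values were those of ALDH1L2 between the lines under FOLFIRINOX, 0.10 on log2(FPKM + 1) and 0.39 on log2(FPKM + 0.1), and of YARS1 with the drug in control cells, 0.16, 0.17 and 0.16 on log2(FPKM + 1), log2(FPKM + 0.1) and with the FPKM filter; the cause was not tested. The number of genes with a higher difference of drug responses, 2, was 1 on each of the 3 FPKM settings, and 2 to 4 with each library left out in turn, with 4 without control FOLFIRINOX replicate 3. Over all genes the differences called numbered 4013, and 2293 without the 3 shallowest libraries, a fit with fewer samples. The share of these calls on the higher side was 51.83% by TMM, 39.47% by total counts and 26.5% on log2(FPKM + 1). With DESeq2 all 165 results for single genes kept their side of the threshold, and their direction where called. Libraries with the same replicate number did not deviate together throughout. Of 18 pairs 5 had a correlation of deviations over 0.1 (-0.276 to 0.201), and the best match was the same number in 5 of 18. With 3 libraries per group, these correlations cannot exclude a shared batch. With the replicate block the counts of members called were those of the main analysis, 11 and 11, 7 and 18, 10 and 4, 6 and 17, and 2 and 17, and over all genes 3538 differences were called in place of 4013. With no filter on low counts, 8 genes rose in control cells in place of 11 (JDP2, PPP1R15B and TRIB3 lost their call) and 14 in place of 17 had a lower difference (CEBPG, SARS1 and YARS1 lost theirs), while 6 in place of 4 were lower in E5 vehicle. Counts of ASNS, CBS and ALDH1L2 were low, with SEs of 0.24 or more, so small changes in these counts were not detectable.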
